A study of Mus musculus with 6 samples.

Results

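The cytosolic ribosomal protein genes encode the proteins of the large (Rpl) and small (Rps) subunits of the ribosome in the cytoplasm. Members were taken by symbol from the GENCODE vM1 annotation of mm9, as protein-coding genes of chromosomes 1 to 19 named Rpl or Rps with a number and at most a letter, together with Rpsa, Rplp0, Rplp1 and Rplp2. The S6 kinase genes (Rps6k) and Rpl10l were left out. The rule gave 75 of 21418 protein-coding genes, 44 of the large and 31 of the small subunit, and it used no measured value.

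DNA methylation was measured by MeDIP-seq, in which sheared genomic DNA is pulled down with an antibody to methylated cytosine and sequenced, in mouse primary mesangial cells, the contractile supporting cells of the kidney glomerulus. There were 3 control samples and 3 samples treated with 10 ng/ml of transforming growth factor-β1 (TGF-β1) for 72 h. All 6 were cultured in 25.5 mM glucose with 20% fetal bovine serum and used at passages 3 to 6. The strain, sex and age of the source animals and a carrier treatment of the controls are not given in the sources used here. The study calls the samples of a group biological replicates but does not say whether they were separate cultures or animals, so the p-values measure only the spread between these samples. RNA was not analysed here, so the cell type could not be checked by its markers.

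Ribosomal protein genes are housekeeping genes. Each growing cell transcribes them at a high level, from short promoters that usually lie in CpG islands, and CpG islands at active promoters are as a rule free of methylation, while methylation is usual in the bodies of transcribed genes. Their mRNAs start with a run of pyrimidines (terminal oligopyrimidine, or TOP, mRNAs), by which their translation follows growth signals, and many of their introns carry small nucleolar RNAs (snoRNAs). Over evolution their mRNAs have been copied back into the genome many times, which left a large number of processed pseudogenes that resemble the coding exons.

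A peak is a place where MACS2 found more reads than in the surrounding DNA of the same sample, and its pileup is the number of extended reads over its highest point, the summit. A peak was given to a member where its summit lay in the gene or within 2 kb of it. By summit and strand it was placed in the promoter (500 bp either side of the annotated 5′ end), the body (the rest of the gene), the upstream flank (the remaining DNA up to 2 kb upstream) or the downstream flank (2 kb past the 3′ end). The samples held 9407103 to 11494356 reads in control and 12634300 to 13291419 reads in TGF-β1, and 81473 to 105520 peaks. Every TGF-β1 sample was deeper than every control sample, so in a count of peaks depth and treatment cannot be told apart. The lowest pileup called was 8 in each control sample and 9 or 10 in the TGF-β1 samples. A region without a peak is one below this limit, which is not a measurement of absent methylation.

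The following stretches of the mm9 reference show promoters, where nearly no peak was called, beside DNA under called peaks of the same genes. For 2 members with a region called in all 6 samples, the 150 bases before the annotated 5′ end are set beside 150 bases around the summit, read on the strand of the gene, with each CpG in capitals.
Rps3 promoter, chr7:106632249-106632398, minus strand: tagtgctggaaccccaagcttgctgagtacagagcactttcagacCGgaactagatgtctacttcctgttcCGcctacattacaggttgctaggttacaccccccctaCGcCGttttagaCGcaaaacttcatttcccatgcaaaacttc
Rps3 coding exon peak, chr7:106630734-106630883, minus strand: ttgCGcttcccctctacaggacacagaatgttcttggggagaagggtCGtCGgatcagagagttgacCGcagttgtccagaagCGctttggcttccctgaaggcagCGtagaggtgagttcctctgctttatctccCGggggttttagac
Rps24 promoter, chr14:25309753-25309902, plus strand: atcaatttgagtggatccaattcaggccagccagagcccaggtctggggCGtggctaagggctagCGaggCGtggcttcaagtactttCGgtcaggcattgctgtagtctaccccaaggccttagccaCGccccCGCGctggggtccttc
Rps24 intron peak, chr14:25312447-25312596, plus strand: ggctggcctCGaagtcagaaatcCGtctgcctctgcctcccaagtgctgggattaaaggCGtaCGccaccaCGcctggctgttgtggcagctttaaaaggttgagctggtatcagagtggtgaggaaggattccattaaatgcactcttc
In these windows the CpG number differed little between promoter and peak. The promoter window of Rps3 held 5 CpGs and its peak window 7, and those of Rps24 held 7 and 5. The promoter windows stop at the 5′ end and so leave out much of the promoter. With 500 bp either side of the 5′ end, the promoter held 53 CpGs at Rps3 and 68 at Rps24. The called regions held 18 CpGs in 634 bases at Rps3 and 10 in 447 bases at Rps24. Per base, these promoters thus held more CpGs than the called regions.

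The promoters of the ribosomal protein genes, drawn as 500 bp either side of the 5′ end, carried almost no peak. Of 75 members, 1 (1.33%) had a promoter peak in any sample, against 1418 of 21418 protein-coding genes (6.62%), and no member had a promoter peak in more than 1 sample. That member was Rpl39l, a paralogue of Rpl39 with an expression restricted mainly to testis, which had a single peak with a pileup of 15 in control replicate 2, its summit 76 bp upstream of the 5′ end. Its region, chr16:10170061-10170363, was not called in the other 5 samples. The 150 bases around that summit hold 11 CpGs, and are shown because they are the single promoter stretch of the family with a call.
Rpl39l promoter peak, chr16:10170168-10170317, plus strand: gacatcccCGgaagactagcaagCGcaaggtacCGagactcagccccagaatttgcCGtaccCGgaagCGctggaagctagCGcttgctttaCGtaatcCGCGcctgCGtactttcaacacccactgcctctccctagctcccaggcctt

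Beside Rpl39l, no summit of any of the 6 samples lay within 661 bp upstream and 1270 bp downstream of a member's annotated 5′ end, ends excluded. The nearest summit upstream belonged to Rpl13a and the nearest downstream to Rps28. The 5′ end used for Rpl13a, at 52391787 on chromosome 7, is that of a model that reaches into Flt3l. The Rpl13a transcripts of 3180 and 3191 bp have their 5′ ends at 52384107 and 52384118, so this summit does not describe their promoter. Farther upstream the density rose. It was 3.56 peaks per 100 kb per sample from 750 to 500 bp upstream, 24 from 1000 to 750 bp and 27.6 from 1250 to 1000 bp, where all protein-coding genes had 4.63, 5.29 and 5.29. Inside the genes it was 0 up to 1250 bp, and 13.8 from 2000 to 2250 bp, where all protein-coding genes had 7.09. These bins hold few peaks, 4, 27 and 31 in the 3 upstream bins over all samples, and the same places are counted again in each sample. The near absence of promoter peaks thus depends on the window. Promoters drawn from 1000 bp upstream to 500 bp downstream held 4, 6 and 7 peaks in control and 5, 4 and 6 in TGF-β1. Drawn as 500 bp either side of any protein-coding transcript's 5′ end, they held 0, 1 and 0 in control and 1, 0 and 0 in TGF-β1.

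**Figure D1:**
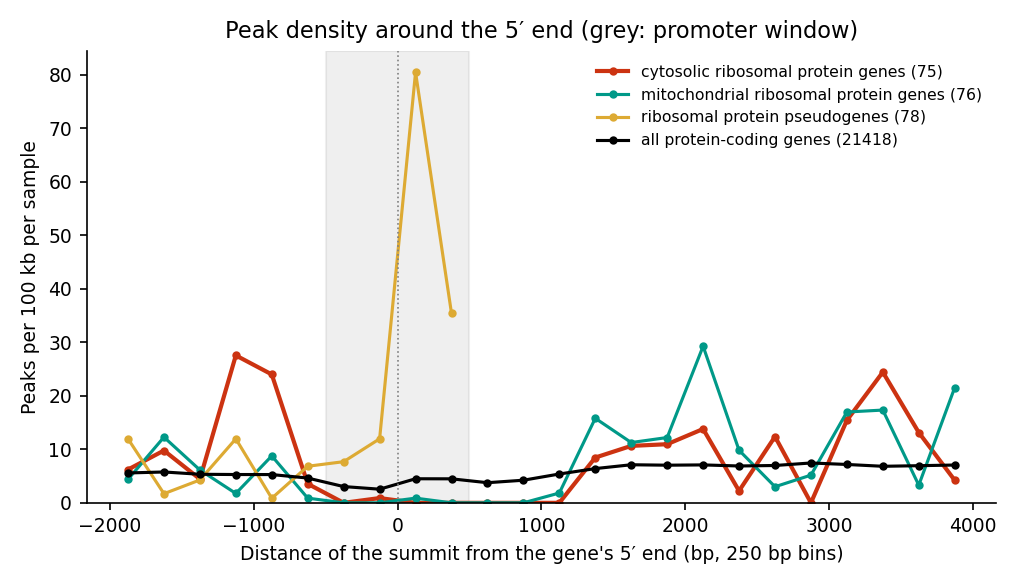
Peaks per 100 kb per sample (y axis) in 250 bp bins of the distance of the summit from the annotated 5′ end (x axis; the promoter window is grey), for the members, mitochondrial ribosomal protein genes, ribosomal protein pseudogenes (up to 500 bp, since most are shorter) and all protein-coding genes. The members reached 27.6 in the bin from 1250 to 1000 bp upstream and were at 0 in each bin from 0 to 1250 bp inside the gene.

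The members' promoters were rich in CpG, the site of methylation in these cells. The 1001 bases around the 5′ end held a median of 65 CpGs (range 9 to 90) and had a median ratio of observed to expected CpGs of 0.81. Over all protein-coding genes the medians were 42 CpGs and 0.56. A ratio of at least 0.6 was found in 69 members (92.0%) and in 46.5% of all protein-coding genes. Of all 9950 genes with such a ratio, 2.06% had a promoter peak, and of the 69 members 0 did. Below 0.6 the share was 10.6% of 11468 genes and 1 of 6 members, Rpl39l. Among these 6 was Rpl13a (0.42), measured at the 5′ end of the model that reaches into Flt3l. The lowest ratio, 0.15, belonged to Rps2, which had no peak in any sample. Rpl34 and Rps3a, with 87 and 86 CpGs there, both had a body region called in all 6 samples and no promoter peak. The hexamer CTTTCC, a pyrimidine run of the kind at which TOP mRNAs start, was found on either strand within 50 bases of the 5′ end in 13 members (17.3%) and in 8.33% of all protein-coding genes. It was found in 1 of 19 genes with other TOP mRNAs or a fused ribosomal protein (5.26%), in 13.2% of mitochondrial ribosomal protein genes and in 28.2% of the pseudogenes. The search took a fixed hexamer at any position and on either strand. It therefore cannot tell which genes have a pyrimidine run at the start of the mRNA.

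Taking gene and flanks together, 50 of 75 members had a peak in at least 1 sample, 18 had a peak in all 6 samples and 25 had none. The share with a peak in all 6 (24%) was lower than over all protein-coding genes (50.9%), but the members are short, with a median length of 3431 bp against 15535 bp. Of the large subunit, 33 of 44 members had a peak and 10 had a peak in all 6 samples. Of the small subunit, 17 of 31 had a peak and 8 had a peak in all 6. Median gene length was 3568.5 bp in the large and 2909 bp in the small subunit. Among the 25 members without a peak were Rpl8, Rpl10a, Rpl14, Rpl19, Rpl27a, Rpl29, Rpl32, Rpl36, Rpl37a, Rplp1, Rplp2, Rps2, Rps6, Rps9, Rps12, Rps15a, Rps18, Rps20, Rps23, Rps25, Rps27, Rps27l, Rps29 and Rpsa.

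Body peaks were found in 27 members (36%), against 68.1% of all protein-coding genes and 72.4% of 76 mitochondrial ribosomal protein genes, which encode the separate ribosome of the mitochondrion. Per length the order differed. The members' bodies held 6.87 peaks per 100 kb per sample (5.84 to 7.46 over the 6 samples), all protein-coding genes 5.39 (4.49 to 5.89) and the mitochondrial ribosomal protein genes 8.64 (6.85 to 10.4). The members with a body peak were longer, with a median of 4761 bp against 2907 bp in the 48 without.

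The upstream flank held 12.6 peaks per 100 kb per sample in the members (9.78 to 15.1), 5.70 (4.39 to 7.89) in the mitochondrial ribosomal protein genes and 5.32 (4.58 to 5.89) in all protein-coding genes, so that the lowest sample of the members lay above the highest sample of these 2 lists. The 2 smaller lists overlapped the members, with 6.43 (3.51 to 10.5) in 19 genes with other TOP mRNAs or a fused ribosomal protein (such as Eef1a1, Eef2 and Fau) and 6.67 (3.33 to 13.3) in 20 ribosome biogenesis genes (such as Fbl and Ncl). In any sample, 21 members (28%) had an upstream flank peak, against 14.3% of all protein-coding genes. This rests on 20 regions, which recur from sample to sample, and no test over genes was made. The downstream flank did not stand apart, with 5 peaks per 100 kb (2.67 to 7.33) in the members and 4.97 (4.09 to 5.65) in all protein-coding genes. A promoter peak was found in 1 of 76 mitochondrial ribosomal protein genes (1.32%), 0 of 19 other TOP mRNA or fused genes and 0 of 20 ribosome biogenesis genes. Set against 6.62% of all protein-coding genes, the last 2 lists are too short to read anything from a count of 0.

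**Figure D2:**
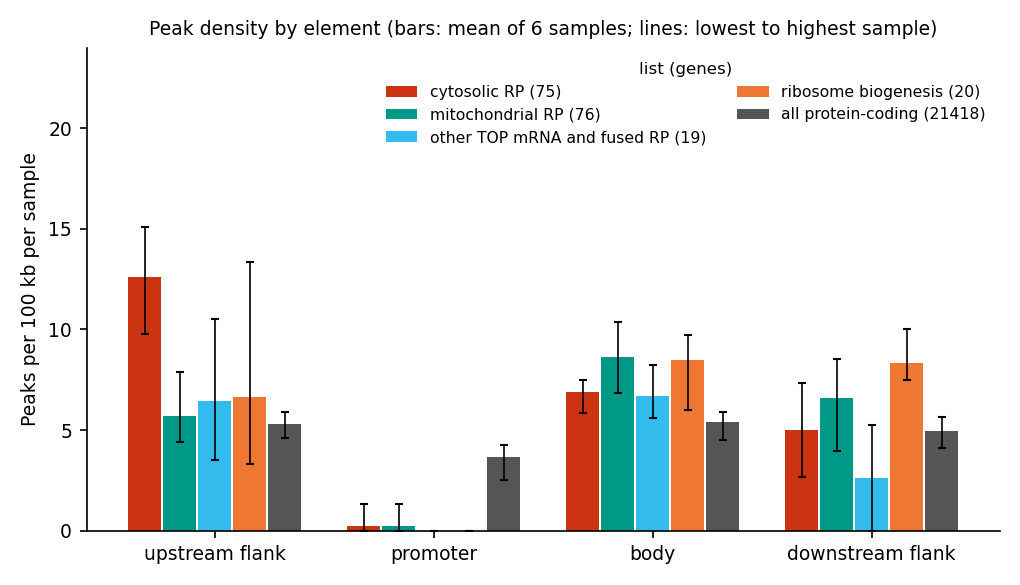
Peaks per 100 kb per sample (y axis) in each gene element (x axis) for 5 lists of genes. Bars are means over the 6 samples and lines run from the lowest to the highest sample. In the upstream flank the members had 12.6 and all protein-coding genes 5.32, and in the promoter 0.22 and 3.65.

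The 254 member peaks were 1 in a promoter, 127 in bodies, 81 in upstream and 45 in downstream flanks. Joined where they overlapped between samples, they made 71 regions, of which 19 (26.8%) were called in all 6 samples, 34 in 2 to 5 and 18 (25.4%) in 1. Over all 170444 regions of the genome, 24.5% were called in all 6 samples and 27.3% in 1. The 19 regions had a median mean pileup of 22.7 and a median fold enrichment over local background of 7.17, and all regions called in all 6 samples had 26.5 and 7.35. They held a median of 2.32 CpGs per 100 bases, against 2.60 in the 40840 such regions of chromosomes 1 to 19.

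Of the 35 body regions, 14 had their summit in a coding exon, 15 in an intron, 4 in an untranslated exon and 2 in an exon of a noncoding transcript. Called in all 6 samples were 4, 5, 0 and 1 of these. The summits lay at a median of 3482 bp from the 5′ end and 73.1% of the gene's length, and 25 of 35 lay past the midpoint. The body leaves out the first 500 bp by definition, and joined gene models are included. The same values over all protein-coding genes are not given here, so a late position is not shown to be particular to the members. No summit lay in any of the 56 snoRNA genes that 28 members held. The share expected from the length of the snoRNA genes is not given here, so nothing is read from that count. A body peak was found in 8 of 28 host genes and in 19 of 47 other members.

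Some of these regions lie in DNA that the annotation joins to a member but that is not the usual ribosomal protein gene. The model of Rpl24, whose protein lies at the joint of both subunits, spans 42639 bp, because it includes a transcript from 55973917 to 56009026 on chromosome 16. The RefSeq table of GRCm38.p6 has Zbtb11 next to Rpl24. All 4 regions given to Rpl24 lie beyond the 5161 bp transcript that ends at 55971548. Outside Rpl24, 12 of the 14 coding exon regions remained. For Rpl13a, also known for its part in interferon-dependent control of translation, the model spans 10860 bp and reaches into Flt3l, and 2 of its 4 regions have their summit there. Of the 2 regions of Rps28, the one in an intron lies in the neighbouring gene Kank3. The members with a model over 10 kb were Rpl11, Rpl13a, Rpl24 and Rps15a. Without these 4, 27 body regions remained, body peaks were found in 24 of 71 members and the body density was 8.35 peaks per 100 kb per sample (7.28 to 9.56). By this annotation, 10 of the 71 regions had their summit in a protein-coding gene that is no member. The 4 regions given to Rpl24 are not among these 10, since the annotation counts that DNA as Rpl24 alone.

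Body regions with the highest mean pileup among those called in all 6 samples began with the Kank3 intron region at Rps28 (chr17:33956327-33956744), with pileups of 20, 30 and 35 in control and 32, 29 and 38 in TGF-β1. The region of Rpl7, which encodes a protein of the large subunit, lay in an exon of a noncoding transcript (chr1:16091370-16091950), with 26, 23 and 28 in control and 29, 31 and 36 in TGF-β1. Every TGF-β1 value was above every control value at Rpl7. Divided by reads the values were 2.52, 2.44 and 2.44 per 1000000 in control and 2.27, 2.45 and 2.71 in TGF-β1, and the groups overlapped.

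The intron region of Rps24 (chr14:25312317-25312763), whose peak sequence is given above, had pileups of 21, 22 and 23 in control and 29, 22 and 33 in TGF-β1. Rps24 is among the genes mutated in Diamond-Blackfan anaemia, as is Rps26, whose protein sits at the exit channel of the mRNA. In the intron region of Rps26 (chr10:128061550-128062081) the pileups were 17, 27 and 28 against 26, 20 and 29. The groups overlapped at both genes.

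The coding exon region of Rpl34 (chr3:130431278-130431924), a protein of the large subunit, had pileups of 12, 21 and 34 in control and 19, 30 and 20 in TGF-β1, the widest spread within the controls among body regions called in all 6 samples (SD 11.1). In the coding exon region of Rps3a (chr3:85942962-85943347) they were 19, 13 and 20 against 16, 20 and 36. At Rps3a TGF-β1 replicate 3, the deepest sample, was highest, and the other values of the groups overlapped.

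Among flank regions called in all 6 samples, the region 322 bp past the 3′ end of Rps14, the small-subunit gene tied to the 5q- syndrome, had pileups of 34, 26 and 41 in control and 36, 38 and 36 in TGF-β1. The region 908 bp upstream of Rpl28 (chr7:4743365-4743775) had 31, 18 and 42 against 42, 31 and 32. The region 1015 bp upstream of Rpl13 (chr8:125625014-125625474), inside the gene model Gm20388, had 25, 24 and 19 against 25, 23 and 27. In none of the 3 did the groups separate.

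Of 12 members named for their role or as a paralogue with a special expression, 7 had a peak and 1 had a peak in all 6 samples, and of all members 66.7% had a peak. Rpl5 and Rpl11 encode the proteins that bind the 5S RNA and, when free of ribosomes, the p53 regulator Mdm2. The upstream region of Rpl5 was called in all 6 samples, with pileups of 20, 19 and 21 in control and 23, 27 and 24 in TGF-β1. Divided by reads these were 1.94, 2.02 and 1.83 against 1.80, 2.14 and 1.81 per 1000000, and the groups overlapped. Rpl11 had 1 peak, with a pileup of 12, in TGF-β1 replicate 1.

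Of the acidic stalk proteins, which bind elongation factors, Rplp1 and Rplp2 had no peak. Rplp0 had a region in an untranslated exon called in control replicate 3 (pileup 16) and TGF-β1 replicate 2 (pileup 19). Neither Rps6, the substrate of the S6 kinases, nor Rpsa, also known as a laminin receptor, had a peak in any sample. Rps27a, which is made as a fusion to ubiquitin, had 2 regions, each called in a single TGF-β1 sample with a pileup of 16.

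Rps19, the gene most often mutated in Diamond-Blackfan anaemia, had an upstream region called in 5 samples, with pileups of 14 and 19 in control replicates 2 and 3 and of 27, 18 and 23 in TGF-β1. Its coding exon region had 25 and 26 in the same 2 control samples and 14 and 14 in TGF-β1 replicates 2 and 3. At the upstream region the groups overlapped in pileup. They also overlapped after division by reads, where TGF-β1 replicate 2 was the lowest of the called samples. At the coding exon region both called control values were above both called TGF-β1 values, also after division by reads. Neither region was called in every sample and no test was made, so opposite changes at the 2 regions are not shown. Rpl3l, the paralogue of Rpl3 in striated muscle, had a coding exon region with pileups of 16 and 27 in control replicates 2 and 3, and another of 16 in TGF-β1 replicate 2. Rps27l, a p53-induced paralogue of Rps27, had no peak.

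Most regions were held by Rpl13a and Rpl24, with 4 each, and Rps3a, with 3. Of the 3 in Rps3a, the 2 beyond the coding exon region were called in 1 sample each. Another 14 members had 2 regions.

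The comparison of control and TGF-β1 asked whether the growth factor changed the methylation of these genes. Control samples held 33, 40 and 46 member peaks and TGF-β1 samples 44, 43 and 48. The means were 39.7 ± 6.51 and 45.0 ± 2.65 (SD, n = 3 each), a difference smaller than the SD of the controls (p = 0.3 by a two-sided exact permutation test, which with groups of 3 cannot go below 0.1). The groups overlapped, control replicate 1 being lowest. Members with a peak numbered 29, 36 and 39 against 38, 35 and 39 (exact permutation p = 0.7).

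Scaled by depth the direction turned. There were 3.20, 4.25 and 4 member peaks per 1000000 reads in control and 3.45, 3.40 and 3.61 in TGF-β1, with means of 3.82 ± 0.551 and 3.49 ± 0.109 (SD, n = 3 each; exact permutation p = 0.4). Per 1000 peaks of the sample there were 0.405, 0.443 and 0.458 against 0.433, 0.428 and 0.455, with means of 0.435 and 0.439 (exact permutation p = 1). No difference in the share of peaks at these genes was detectable between the groups.

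By element, body peaks numbered 19, 18 and 23 in control and 22, 23 and 22 in TGF-β1 (exact permutation p = 0.4, 0.8 after Benjamini-Hochberg adjustment over the 4 elements). Upstream flank peaks numbered 10, 13 and 14 against 16, 13 and 15 (exact permutation p = 0.3, adjusted 0.8), and downstream flank peaks 4, 8 and 9 against 6, 7 and 11 (exact permutation p = 0.8, adjusted 1). Promoter peaks numbered 0, 1 and 0 against 0, 0 and 0. The groups overlapped in each element. Without control replicate 1, the difference in members with a peak changed from 2.67 to -0.17 and that in downstream flank peaks from 1 to -0.5, which was also the value without TGF-β1 replicate 3.

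**Figure D3:**
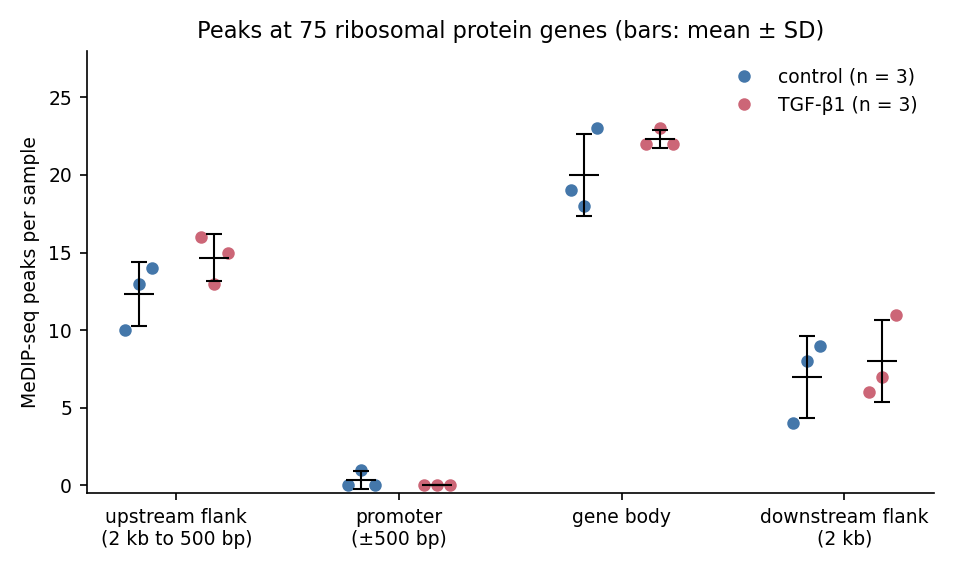
Member peaks per sample (y axis) in each gene element (x axis). Points are the 3 control and 3 TGF-β1 samples and bars give mean ± SD. The groups overlap in each element, and body peaks range from 18 to 23 over all 6 samples.

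For the 19 member regions called in all 6 samples, log2 pileups, from which the sample's median was subtracted, were fitted with limma together with all 41744 such regions of the genome. None of the 19 passed an adjusted p of 0.05, and the share over all regions was 0%. At an unadjusted p below 0.05, 1 of 19 was higher in TGF-β1 (1.96% of all regions) and 0 were lower (2.22% of all regions). The member median of the log2 difference was 0.08, against -0.0047 over all regions, and 12 of 19 were above 0. Divided by reads instead, the medians were -0.01 and -0.10. The adjusted p of every member was 0.999, so none of the values that follow is a called change.

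The region with the smallest p lay in a coding exon of Rps3 (chr7:106630393-106631026), the one shown in the sequences above. Rps3 encodes a protein at the entry of the mRNA channel that also has a role in DNA repair. Its pileups were 12, 10 and 17 in control and 23, 19 and 27 in TGF-β1, with means of 13 ± 3.61 and 23 ± 4 (SD, n = 3 each). Divided by reads, the values were 1.16, 1.06 and 1.48 per 1000000 against 1.80, 1.5 and 2.03, and the groups did not overlap. The fitted log2 difference was 0.62 (SE 0.21; limma adjusted p = 0.999), and this was the single member region with an unadjusted p below 0.05.

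The Rpl24 region (chr16:56006772-56007186) had pileups of 23, 22 and 22 in control and 33, 34 and 33 in TGF-β1, with very little spread in either group. It is the region 40582 bp from the 5′ end, beyond the usual Rpl24 transcript. Per 1000000 reads the values were 2.23, 2.34 and 1.91 against 2.59, 2.69 and 2.48, also without overlap. Its fitted log2 difference was 0.36 (SE 0.20; limma adjusted p = 0.999). The upstream region of Rpl26, a protein near the exit tunnel, had pileups of 11, 15 and 21 against 17, 20 and 31, with a log2 difference of 0.31 (SE 0.23).

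In the other direction, the Rps26 intron and the Rps14 downstream regions had fitted log2 differences of -0.15 (SE 0.22) and -0.07 (SE 0.19), and both had overlapping pileups.

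**Figure D4:**
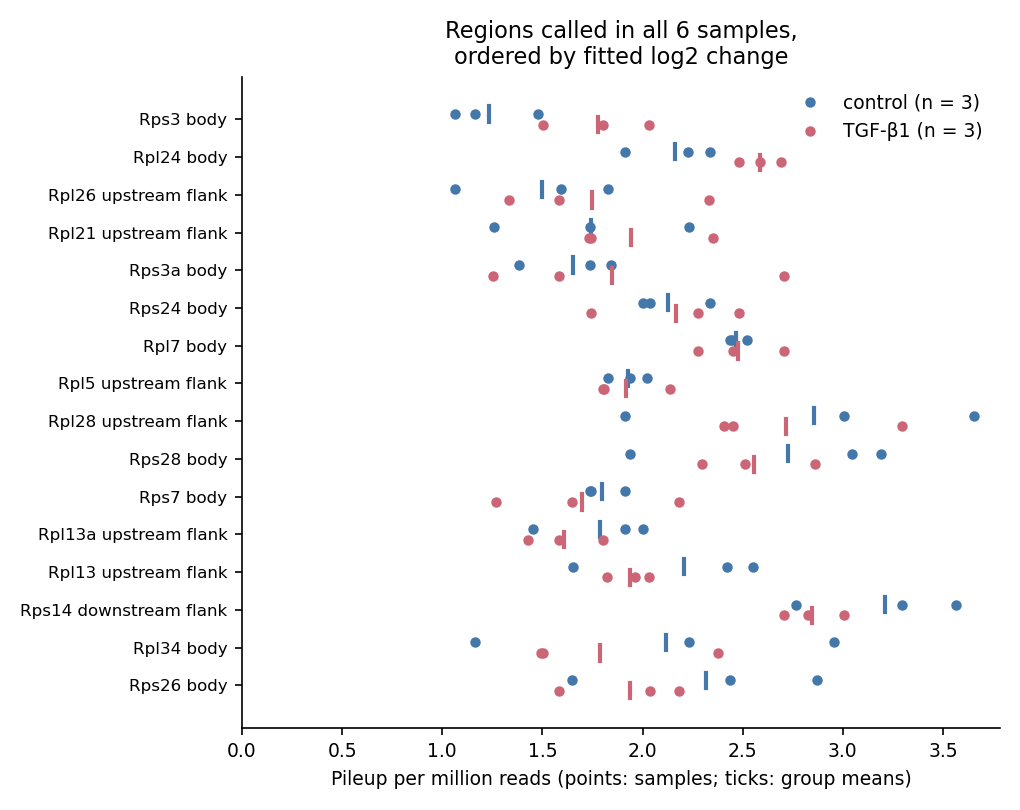
Pileup per 1000000 reads (x axis) of 16 member regions called in all 6 samples (y axis, ordered by the fitted log2 difference). Points are samples and ticks are group means. At Rps3 and Rpl24 the TGF-β1 samples lie above the control samples, and in the other 14 regions the groups overlap.

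By non-overlap of the pileups per 1000000 reads, 2 of 19 member regions were higher in every TGF-β1 sample (Rps3 and Rpl24), where 1.97% of all 41744 regions were, and 1 was lower, where 10.4% were. No member region of 71 was called in all 3 TGF-β1 samples and no control sample, against 0.948% of all 170444 regions, and none in the opposite way, against 0.233%. The nearest to it were an Rpl30 downstream region with pileups of 15 and 17 and the Rps26 upstream region with 17 and 15, each called in 2 TGF-β1 samples and no control sample, and in both the pileups were not far above the lowest that were called. The Rpl30 region starts at 34369168, close to another Rpl30 downstream region (chr15:34368605-34368975). That neighbouring region was called in 2 control and 3 TGF-β1 samples. No member had more peaks in every TGF-β1 sample than in every control sample, where 2.98% of protein-coding genes did, and none had fewer, where 0.261% did.

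Because reads were kept only where they mapped to a single place, the pseudogene copies bear on what these genes could show. The deposited lists were made with a read length of 49 bases, and each stretch of 49 bases in the members was looked up in the whole of mm9 on both strands. Only exact copies of single stretches were counted. The authors' mapping allowed mismatches and the paper speaks of paired reads, so these shares are not the shares of reads that could be placed. Of the stretches centred in coding exons, 55.3% occurred once, against 94.1% in mitochondrial ribosomal protein genes. In introns the shares were 97.3% and 95.1%, and in promoters 96.0% and 99.3%. Fewer than 50% of the coding stretches were unique in 43 of 75 members, with the lowest shares at Rpl15 (16.7%), Rps6 (21.3%) and Rpsa (25.9%). Rps3, in contrast, had 92.7% in its coding exons and 100% in its called region, and the paralogues Rpl3l and Rpl39l had 100%.

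**Figure D5:**
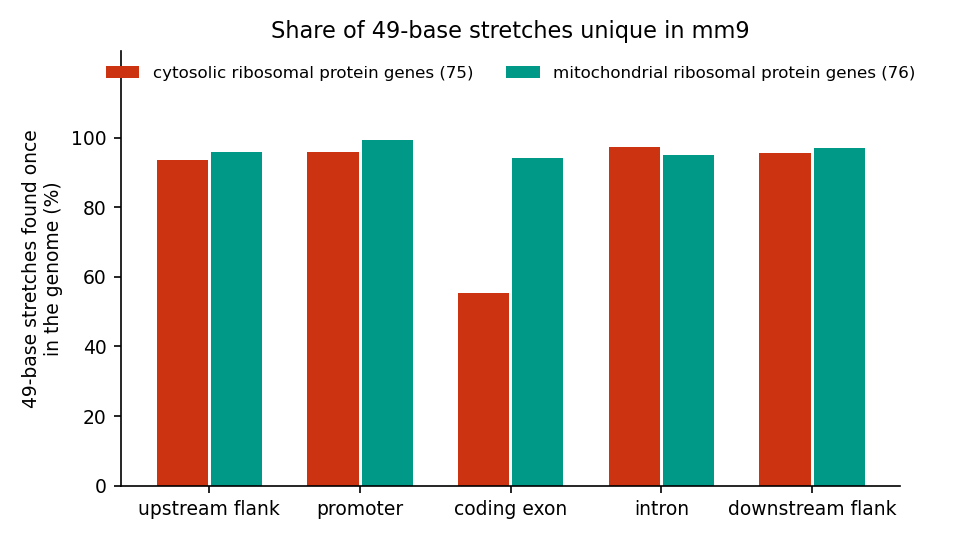
Share of 49-base stretches that occur once in mm9 (y axis, %) by the part of the gene in which they are centred (x axis), for the 75 members and 76 mitochondrial ribosomal protein genes. The members stand lower in coding exons, with 55.3% against 94.1%, and not in introns, with 97.3% against 95.1%.

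In the 14 coding exon regions the median unique share was 96.3%, with the lowest 61.1% at Rpl6. That median includes the coding exon regions of the Rpl24 model, each at 100%, which lie beyond the usual Rpl24 transcript. Among members with a body peak, 14 of 27 had fewer than 50% unique coding stretches, and among those without, 29 of 48, with medians of 47.1% and 44.1%. The part of read placement in the number of coding exon peaks was not tested. Of the 78 ribosomal protein pseudogenes with a -ps symbol, 50% had a peak on the copy or within 500 bp of its 5′ end, against 37.3% of the members. With a median length of 478 bp, most pseudogenes lie wholly within that window, and they are poor in CpG there, with a median of 20.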

How the data were processed

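The authors mapped clean reads to mm9 with BWA, kept uniquely mapped reads, counted reads with the same start once, and called peaks in each sample separately with MACS 2.1.0.20150731 (q cutoff 0.01, no input, tag size 49). Pileup, as deposited, is a signal without scaling for depth. Fold enrichment, as deposited, is its ratio to the local background. The lists also hold −log10 values of p and q, deposited as MACS2 wrote them. The read numbers come per the file headers, after duplicate filtering.

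Overlapping peaks of the 6 samples (1 bp or more) formed a region. Each region took its highest pileup per sample. Values per sample were compared by an exact permutation test, and regions by limma 3.58.1 in R 4.3.3 (eBayes with a trend), which was tested on simulated data. Counting used Python 3.11.15. CpGs, 49-base stretches and sequences came from NCBIM37, which is mm9, and GENCODE vM1. Every peak of chromosomes 1 to 19 ended within its chromosome. Of the lists fixed for comparison, 20 ribosome biogenesis genes and 19 other TOP mRNA or fused ribosomal protein genes were found on chromosomes 1 to 19.

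Genes were named by rule: members with a promoter peak, the 8 body and 4 flank regions called in all 6 samples with the highest mean pileup, for either direction the 3 regions of lowest limma p, the 5 members with the most regions (14 tied at 2 regions for the last places are given as a number), and genes with a known role. Members named for uniqueness, CpG content or a gene model were chosen after their values were seen. The members and lists were chosen with earlier results of these data known. The authors' test on read counts was not repeated, since a peak list holds no reads of uncalled regions. Some genes, regions and a sequence that the rule would name are not reported here, and the plot of pileups leaves out 3 regions.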

Additional observations from a re-analysis of the deposited data

How the results depend on the processing

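Of 220 values recomputed under other settings, 201 kept their direction and their side of the threshold or, for counts, stayed within 1.5 times. Some of these agreements were fixed in advance. The replicate number as a block gives the same differences by arithmetic, and a window of 1 or 5 kb leaves promoter and body peaks as they are. The number 201 therefore does not measure robustness. The exceptions to it were small differences. The difference in member peaks per 1000 peaks of the sample (TGF-β1 minus control), 0.00348 as reported, was -0.0156 with a window of 1 kb, -0.0182 with 5 kb, -0.00202 without peaks in another protein-coding gene and -0.00340 without the 4 members over 10 kb, an alternative chosen after seeing the data. The difference in upstream flank peaks was 2.33, and -0.333 with a window of 1 kb. That in promoter peaks became 0 with promoters at any protein-coding transcript's 5′ end. They then numbered 0, 1 and 0 in control and 1, 0 and 0 in TGF-β1, and body peaks of TGF-β1 replicate 1 went from 22 to 21. What lay behind the other changes was not tested. With at least 2 samples of a group and none of the other, 2 regions were called in TGF-β1 only. The share over all regions under that rule is not given here, so nothing is read from this count. The number of member regions with an unadjusted limma p below 0.05 was 1 as reported. It was 2 with scaling by reads, where 212 of all 41744 regions were higher in TGF-β1 and 2387 lower. With fold enrichment it was 2, where 847 were higher and 993 lower. Over regions with a peak in at least 3 samples it was 0, where 2570 of 98681 were higher and 1427 lower. The log2 difference at the Rps14 region, -0.07, was 0.13 with fold enrichment and lay between -0.21 (without control replicate 2) and 0.0025 (without control replicate 3) when a sample was left out.

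Leaving out each sample in turn, the difference lay between 2 and 8.5 for member peaks, -0.17 and 4.83 for members with a peak, -0.64 and -0.11 per 1000000 reads, -0.0116 and 0.0148 per 1000 peaks, -0.5 and 0 for promoter, 1.33 and 3.83 for body, 1.17 and 3.17 for upstream and -0.5 and 2 for downstream flank peaks. Member regions with an unadjusted p below 0.05 numbered 0 to 1 (0 without control replicate 2) and with an adjusted p below 0.05 0 each time. Of all 41744 regions, 632 to 1264 were higher and 698 to 1236 lower at the unadjusted p, and 0 passed the adjusted p. With 2 samples against 3, no exact test can pass, so these are values only.

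The replicate numbers showed no sign of pairing in these values, and the sources used here do not say whether the samples were paired. The deviations of same-numbered samples from their group means correlated with r of -0.05, 0.04 and -0.13, and 1 of 6 samples correlated best with its own number. With the number as a block the difference in member peaks was 5.33 (exact sign-flip p = 0.25, the smallest that 3 pairs allow), in members with a peak 2.67, per 1000000 reads -0.33, per 1000 peaks 0.00348, in promoter peaks -0.33, in body peaks 2.33, in upstream flank peaks 2.33 and in downstream flank peaks 1. In this balanced layout these differences equal those without the block by arithmetic, so they are no separate check. With the block, 0 member regions passed an adjusted p of 0.05 and 1 an unadjusted p. Of all 41744 regions, 0 passed the adjusted p, and at the unadjusted p 730 were higher and 803 lower.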
